A study of Homo sapiens with 12 samples.

Results

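The genes examined here encode enzymes that build cholesterol and fatty acids from acetyl-CoA, a sterol transfer protein, and proteins that regulate the genes of these enzymes. They were 30 genes, found by symbol among the 23106 symbols counted in each library, and were split by role into a sterol arm of 17 genes, a fatty acid arm of 8 genes and 5 genes of SREBP control. RNA was measured in RCC4, a human line established from a clear cell renal carcinoma and lacking functional VHL, so that HIF-1α and HIF-2α are stable at normal oxygen in every condition, controls included. Cells were harvested 48 h after transfection with pools of siRNA, at 2 nM in total: control (non-targeting) siRNA at 2 nM, HIF1A siRNA at 1 nM with control siRNA at 1 nM, HIF2A siRNA (against EPAS1, the gene of HIF-2α) at 1 nM with control siRNA at 1 nM, or HIF1A and HIF2A siRNA at 1 nM each (the double knockdown). Each condition had 3 replicates, giving 12 libraries of 1 cell line, and the replicate number paired the conditions.

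Sterol regulatory element-binding proteins (SREBPs) are membrane-bound transcription factors that drive both arms. SREBP-2, encoded by SREBF2, acts mainly on sterol genes, and SREBP-1, encoded by SREBF1, mainly on fatty acid genes. SCAP carries the SREBPs from the endoplasmic reticulum to the Golgi for activation, and the INSIG proteins hold SCAP back when sterols are plentiful. Clear cell renal carcinoma is known for cells filled with cholesterol esters and neutral fat.

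Library totals ranged from 13263168 to 20451433 counts, and 13000 genes passed the expression filter, all 30 members included. HIF1A fell to 12.8, 31.2 and 20.2% of its paired control with HIF1A siRNA and to 20.5, 55.7 and 27.0% in the double knockdown, while EPAS1 fell to between 4.38 and 8.93% wherever HIF2A siRNA was used. EPAS1 also stood at 62.3 to 78.6% of control with HIF1A siRNA, a difference that did not pass the test (edgeR adjusted p = 0.28). All 10 markers of renal epithelium passed the filter, and some were called themselves. CA9 and NDUFA4L2, both known HIF targets, fell with HIF1A siRNA and in the double knockdown, where KRT19 also fell and KRT18 rose. Of 3 leukocyte markers, PTPRC and CD3E had 0 counts in every library and CD68, which is not confined to leukocytes, had 512 to 1337. None of the 3 endothelial markers passed the filter, with PECAM1 at 0, CDH5 at up to 6 and VWF at up to 8 counts. Of 3 fibroblast and pericyte markers, DCN had at most 1 count, while PDGFRB (9 to 162 counts) and RGS5 (24 to 214 counts) passed the filter and were not called against control siRNA. The part of marker levels in the results below was not tested. Levels are given as CPM, the count of a gene relative to the scaled total of its library. In bulk RNA, fewer expressing cells and less RNA per cell cannot be told apart. A gene was called when its Benjamini-Hochberg adjusted p, over all 13000 genes, was below 0.05 in the edgeR quasi-likelihood test.

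In control cells, levels per length of transcript spanned a wide range. ATP citrate lyase (ACLY), which makes cytosolic acetyl-CoA from citrate, had the highest mean at 127 CPM per kilobase, beside 126 for farnesyl diphosphate synthase (FDPS) and 117 for the sterol isomerase EBP. These 3 levels differed by less than the SD of ACLY, which was 21.2 CPM per kilobase (n = 3). TM7SF2, a sterol reductase, had the lowest mean at 0.417, below the sterol transfer protein STARD4 at 2.72 and the fatty acid elongase ELOVL6 at 3.47 CPM per kilobase. Of the paralogs that retain SCAP, INSIG1 stood at 54.1 ± 5.55 and INSIG2 at 15.7 ± 1.15 CPM per kilobase (SD, n = 3).

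HIF1A siRNA lowered 2 of the 30 genes, 1 in SREBP control and 1 in the fatty acid arm, and raised none that passed the test. Across all 13000 genes tested, 1.39% were called in this comparison, 173 lower and 8 higher. At an unadjusted p below 0.05 by edgeR, 4 of the 30 genes were lower and 0 higher, beside 719 lower and 400 higher of all genes tested. INSIG2 stood at 60.5, 53.5 and 53.6 CPM in the control replicates and at 14, 21.4 and 20 CPM with HIF1A siRNA. The groups lay far apart, with the HIF1A siRNA libraries at 23.7, 40.6 and 38.0% of their paired controls. The log2 fold change of INSIG2 was -1.61 (SE 0.16, adjusted p = 2.6e-05 by edgeR). SCD, the desaturase that makes oleate from stearate, stood at 519, 434 and 439 CPM in control cells and at 165, 226 and 313 CPM with HIF1A siRNA. Its groups did not overlap either, but the fall varied between pairs, to 31.9, 52.2 and 71.3% of control. The log2 fold change of SCD was -1.04 (SE 0.17, adjusted p = 0.0039 by edgeR). The call of SCD depended on the HIF1A siRNA library of replicate 1. Without replicate 1 of every condition its log2 fold change was -0.71 (adjusted p = 0.11 by edgeR), and without that library alone it was -0.88 (adjusted p = 0.064). SCD stayed called without control replicate 1, and the call was also lost without the replicate block.

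**Figure D1:**
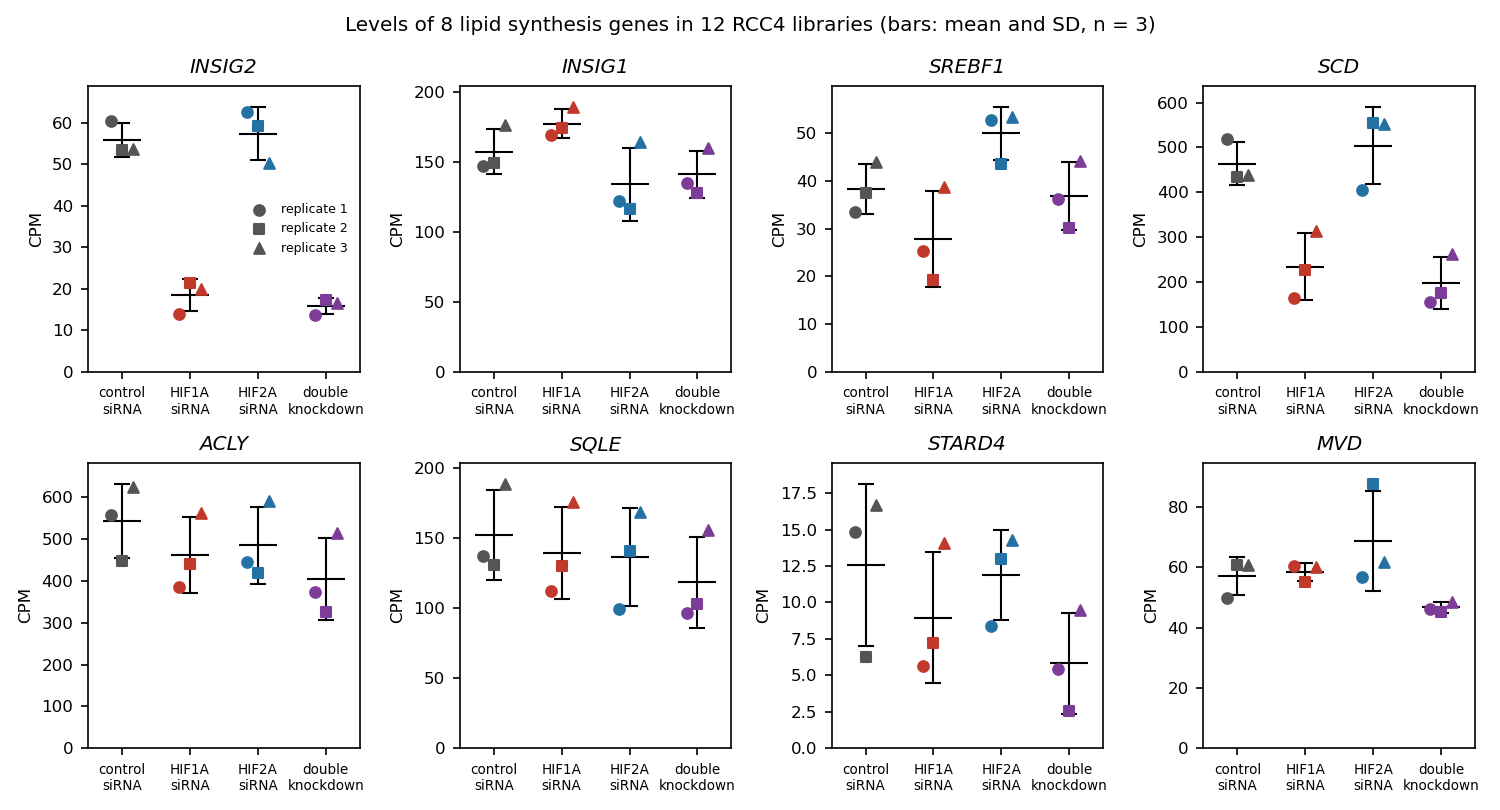
Level of 8 genes (CPM, linear axis from 0) in the 12 libraries, by siRNA condition, with 1 point per replicate and bars for the mean and SD of 3 replicates. INSIG2 and SCD were below every control and HIF2A siRNA library whenever HIF1A siRNA was present. For the other 6 genes, libraries with and without HIF1A siRNA overlapped.

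The other genes of SREBP control did not pass the test with HIF1A siRNA. INSIG1, the paralog of INSIG2 and itself a known SREBP target, stood at 147, 149 and 176 CPM in control cells and at 169, 174 and 189 CPM with HIF1A siRNA. It was higher in all 3 pairs, with a log2 fold change of 0.18 (SE 0.10, adjusted p = 0.69 by edgeR), so that the paralogs lay on opposite sides of 0. SREBF1 stood at 33.5, 37.5 and 43.9 CPM in control cells and at 25.4, 19.3 and 38.8 CPM with HIF1A siRNA. Its log2 fold change of -0.50 (SE 0.15) had an adjusted p of 0.18 by edgeR. SREBF2 (log2 fold change -0.03, SE 0.15) and SCAP (0.03, SE 0.18) had adjusted p-values of 0.98 and 0.99.

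With HIF2A siRNA, 0 of the 30 genes were called by edgeR or by DESeq2, against 0.2% of all genes tested in the edgeR fit. At an unadjusted p below 0.05 there were 3 of 30 by edgeR, beside 6.68% of all genes tested. INSIG1 was lower (log2 fold change -0.24, SE 0.10, adjusted p = 0.70), SREBF1 was higher (0.38, SE 0.15, adjusted p = 0.66) and TM7SF2 was higher (1.37, SE 0.56, adjusted p = 0.69). INSIG2 stood at 62.6, 59.3 and 50.3 CPM, which overlapped its control range, and its log2 fold change was 0.04. SCD stood at 405, 555 and 552 CPM, with libraries on both sides of the control range. SREBF2 differed from control by 0.05 and SCAP by 0.30 on the log2 scale (SE 0.15 and 0.18), with adjusted p-values of 0.98 and 0.79. The value of SCAP came largely from 1 library, since replicate 2 of HIF2A siRNA stood at 120 CPM and the other 11 libraries between 61.5 and 76.7 CPM.

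The same library was also the highest of all 12 for the mevalonate pathway enzymes MVD, at 87.8 CPM, and PMVK, at 67.0 CPM, and the lowest for ELOVL6, at 10.6 CPM. It enters the estimate of spread of every comparison. Its part in each count of members called is given beside that count below, where leaving it out changed the count.

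The direct comparison of the siRNAs tested whether the HIF1A and HIF2A knockdowns differed. HIF1A siRNA against HIF2A siRNA gave 4 called members, against 1.92% of all genes tested. INSIG2 was lower with HIF1A siRNA (log2 fold change -1.64, SE 0.16, adjusted p = 2.2e-05), as was SCD (-1.13, SE 0.17, adjusted p = 0.0016, both by edgeR). SREBF1 also differed, with 25.4, 19.3 and 38.8 CPM for HIF1A siRNA and 52.9, 43.6 and 53.4 CPM for HIF2A siRNA. These groups did not overlap, and the log2 fold change was -0.88 (SE 0.15, adjusted p = 0.0038 by edgeR). Without replicate 1 of every condition it was -0.80 and no longer called. INSIG1 was the member called in the opposite direction, at 169, 174 and 189 CPM with HIF1A siRNA against 122, 116 and 164 CPM with HIF2A siRNA. Its log2 fold change was 0.42 (SE 0.10, adjusted p = 0.046 by edgeR), and the call was lost in 16 of 21 alternatives, among them the removal in turn of every replicate and library except control replicate 1. Over these alternatives its log2 fold change lay between 0.34 and 0.53. Thus 3 of the 5 genes of SREBP control, 1 of 8 in the fatty acid arm and 0 of 17 in the sterol arm were called between the single knockdowns.

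**Figure D2:**
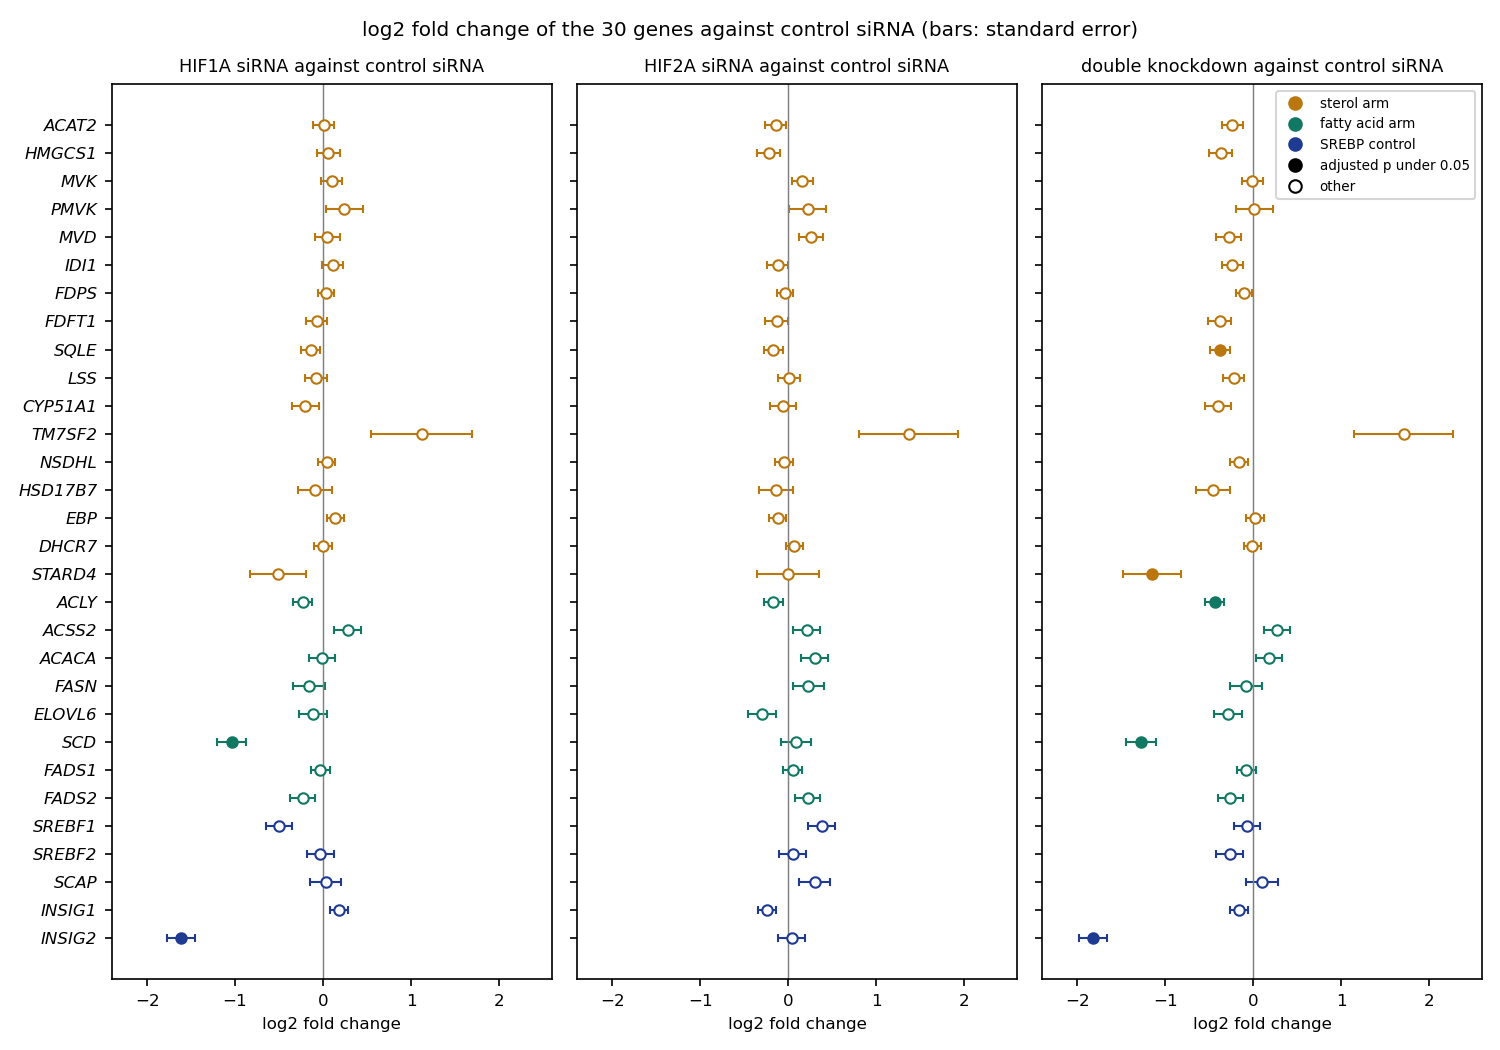
Fitted log2 fold change against control siRNA of each of the 30 genes (points, with the standard error as bars) for HIF1A siRNA, HIF2A siRNA and the double knockdown, coloured by role, with filled points for an adjusted p under 0.05. INSIG2 and SCD are filled with HIF1A siRNA, no gene is filled with HIF2A siRNA, and 5 genes are filled in the double knockdown, where 24 of 30 points lie left of 0.

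The double knockdown lowered 5 of the 30 genes and raised none that passed the test. Of all 13000 genes tested, 10.3% were called in either direction, 834 lower and 502 higher. INSIG2 stood at 13.7, 17.3 and 16.7 CPM, or 23.3, 33.0 and 31.9% of its paired controls, a log2 fold change of -1.82 (SE 0.16, adjusted p = 4e-06 by edgeR). SCD stood at 156, 175 and 263 CPM, or 30.2, 40.4 and 60% of control, a log2 fold change of -1.28 (SE 0.17, adjusted p = 0.00024). All 6 libraries of these genes with HIF1A siRNA, alone or with HIF2A siRNA, lay below all 6 libraries without it. The comparisons with control siRNA share the control libraries, so that their values are given side by side and are not independent of each other.

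The other called members were a second fatty acid gene and 2 sterol genes. ACLY stood at 557, 448 and 625 CPM in control cells and at 374, 325 and 515 CPM in the double knockdown. The groups overlapped, but each library was below its pair, at 67.1, 72.6 and 82.4% (log2 fold change -0.44, SE 0.11, adjusted p = 0.017 by edgeR). SQLE, squalene epoxidase, which commits squalene to sterol rings, stood at 137, 131 and 189 CPM in control cells and at 96.6, 103 and 156 CPM in the double knockdown. These groups overlapped too, and each library was at 70.7 to 82.6% of its pair (log2 fold change -0.38, SE 0.11, adjusted p = 0.043). STARD4, which moves cholesterol between membranes, fell from 14.8, 6.27 and 16.7 CPM to 5.41, 2.56 and 9.49 CPM, or 38.7, 45.1 and 58.0% of its pairs (log2 fold change -1.15, SE 0.33, adjusted p = 0.037 by edgeR). Its groups overlapped, and it was measured with few counts, 34 in replicate 2 of the double knockdown. None of the 3 genes was called with a single siRNA, where their mean levels also lay below control. With HIF1A siRNA and HIF2A siRNA, ACLY averaged 463 and 485 CPM, beside 543 in control cells (n = 3). SQLE averaged 139 and 136 beside 152 CPM, and STARD4 8.96 and 11.9 beside 12.6 CPM.

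These 3 calls were not stable. With single libraries or replicates left out in turn, 2 of the 30 genes were called without replicate 1 or replicate 3 of every condition, and likewise without control replicate 1 or without double knockdown replicate 1 or 2. There were 3 called without control replicate 3 or without HIF1A siRNA replicate 2 or 3, and 8 without HIF2A siRNA replicate 2. The share of all genes called in the same fits is not given here, so these counts cannot be read as particular to the 30 genes. In those fits the log2 fold changes kept their sign, from -0.52 to -0.34 for ACLY, from -0.44 to -0.28 for SQLE and from -1.39 to -0.75 for STARD4 over all 21 alternatives.

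Within the sterol arm, most enzymes leaned downward in the double knockdown without passing the test. Fitted log2 fold changes were below 0 for 14 of 17 genes in this arm, 6 of 8 in the fatty acid arm and 24 of all 30, against 49.4% of all genes tested. At an unadjusted p below 0.05, 6 sterol genes were lower and 1, TM7SF2, was higher, while 11.5% of all genes tested were higher. Over all members 9 of 30 were lower at this threshold, against 13.8% of all genes tested. HMGCS1, which makes HMG-CoA at the head of the pathway, stood at -0.37 (SE 0.13, adjusted p = 0.079). The squalene synthase gene FDFT1 stood at -0.38 (SE 0.13, adjusted p = 0.066), the lanosterol demethylase gene CYP51A1 at -0.40 (SE 0.15, adjusted p = 0.10) and the reductase gene HSD17B7 at -0.46 (SE 0.19, adjusted p = 0.14, all by edgeR). Each of these 4 genes was lower in all 3 pairs. The counts of HSD17B7 are uncertain, since a copy found by its name, HSD17B7P2, is counted under its own symbol.

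The members nearer 0 came from several steps of the pathway. The first thiolase ACAT2, the isomerase IDI1, lanosterol synthase (LSS), FDPS and the dehydrogenase NSDHL stood between -0.24 and -0.11, and MVD at -0.28 (adjusted p = 0.23 by edgeR). Mevalonate kinase (MVK), PMVK, EBP and DHCR7, the last reductase on the way to cholesterol, stood between -0.01 and 0.02. TM7SF2 had only 4 to 21 counts in the control libraries and 23 to 47 in the double knockdown, and its log2 fold change of 1.71 (SE 0.56) had an adjusted p of 0.066 by edgeR. Of the fatty acid arm, acetyl-CoA carboxylase (ACACA) stood at 0.18, the acetate-using synthetase ACSS2 at 0.27 and fatty acid synthase (FASN) at -0.08. ELOVL6 stood at -0.29, and the desaturases of polyunsaturated fatty acids, FADS1 and FADS2, at -0.08 and -0.26. SREBF1 (-0.07, SE 0.15), SREBF2 (-0.27, SE 0.15), SCAP (0.10, SE 0.18) and INSIG1 (-0.16, SE 0.10) had adjusted p-values from 0.26 to 0.81 by edgeR.

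The arms were then compared by their medians. With HIF1A siRNA the median log2 fold change was 0.03 in the sterol arm and -0.13 in the fatty acid arm, and within pairs the sterol median was the higher in all 3, at 0.04, 0.04 and 0.02 against -0.32, 0.01 and -0.03. With HIF2A siRNA the order was the opposite in all 3 pairs, with sterol medians of -0.18, 0.10 and -0.06 against fatty acid medians of -0.10, 0.34 and 0.19. In the double knockdown the sterol median was -0.24 and the fatty acid median -0.17. The sterol arm was below 0 in each pair (-0.23, -0.29 and -0.17), and the fatty acid arm in 2 of them (-0.32, -0.23 and 0.01). The median of all genes tested was 0 in each of these comparisons. Without SCD the fatty acid medians were -0.11, 0.21 and -0.08 for HIF1A siRNA, HIF2A siRNA and the double knockdown, and without TM7SF2 the sterol medians were 0.02, -0.05 and -0.24. In each of these comparisons the 3 pairs of the fatty acid arm spread more widely than the medians of the arms differed, and the difference between the arms was not tested.

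**Figure D3:**
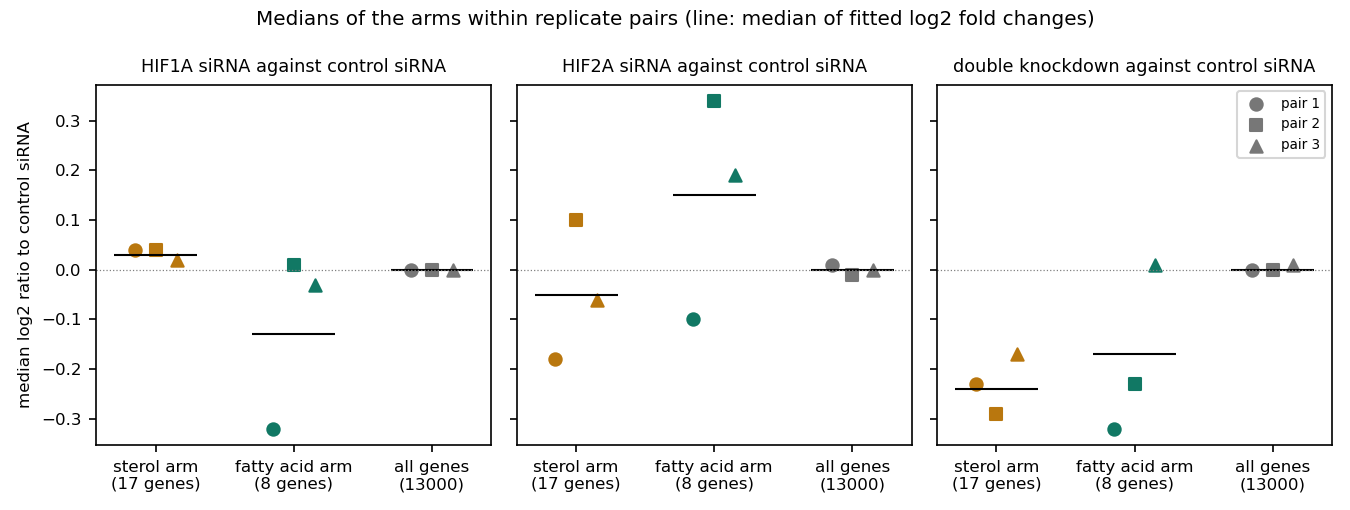
Median log2 ratio to the paired control (vertical axis) over the 17 sterol genes, the 8 fatty acid genes and all 13000 genes tested, with 1 point per replicate pair and a line at the median of the fitted log2 fold changes. The sterol arm was below 0 in all 3 pairs of the double knockdown, and the fatty acid arm spread most between pairs with HIF2A siRNA.

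Adding the second siRNA was examined against each single knockdown. The double knockdown against HIF1A siRNA gave 0 called members by edgeR and 1, INSIG1, by DESeq2, while edgeR called 1.40% of all genes tested. There were 6 members lower and 1 higher at an unadjusted p below 0.05 by edgeR, beside 6.97 and 5.22% of all genes tested, and 2 were called when HIF2A siRNA replicate 2 was left out. The sterol arm had 16 of 17 fitted values below 0 and a median of -0.23, with -0.20, -0.23 and -0.19 in the pairs, beside a fatty acid median of -0.04 and an all-gene median of 0.01. The double knockdown against HIF2A siRNA gave 3 called members, all lower, against 4% of all genes tested (418 lower and 102 higher). They were INSIG2 (log2 fold change -1.86, SE 0.16, adjusted p = 4.2e-06), SCD (-1.37, SE 0.17, adjusted p = 0.00021) and MVD (-0.54, SE 0.14, adjusted p = 0.044, all by edgeR). At an unadjusted p below 0.05 by edgeR, 9 members were lower and 0 higher in this comparison, beside 1310 lower and 1007 higher of all 13000 genes tested. Against HIF2A siRNA the sterol median was -0.17, with -0.08, -0.36 and -0.13 in the pairs. The fatty acid median there was -0.20, with -0.14, -0.46 and -0.09 in the pairs. Fitted values were below 0 for 15 of 17 sterol and 6 of 8 fatty acid genes, so both arms lay lower in this comparison.

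MVD, which makes isopentenyl diphosphate, stood at 46.3, 45.3 and 48.6 CPM in the double knockdown, the 3 lowest of the 12 libraries, against 57.0, 87.8 and 61.9 CPM with HIF2A siRNA. Without HIF2A siRNA replicate 2 its log2 fold change was -0.34 and not called, and the call was lost in 15 of 21 alternatives. Without control replicate 1, 5 members were called in place of 3. In the interaction of the siRNAs, which tests whether the double knockdown departs from the sum of the single effects on the log2 scale, 0 members and 0% of all genes tested were called by edgeR. At an unadjusted p below 0.05 203 genes were lower and 115 higher, or 2.45% of all genes tested, and MVD was the member among them. DESeq2 called 0 members as well. Fitted interactions were below 0 for 17 of 17 sterol genes, 7 of 8 fatty acid genes and 28 of 30 members. Over all genes tested the share below 0 was 49.7%. The median over the members was 0.1, -0.41 and -0.11 in the 3 pairs, so the pairs did not share a sign. This lean was not tested. The fitted interaction was -0.25 (SE 0.22) for INSIG2 and -0.32 (SE 0.24) for SCD, each with an adjusted p of 1.

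The libraries also differed by replicate number. For 18 of the 30 genes, or 60%, replicate 3 was the highest of the 3 replicates in all 4 conditions, compared with 23.7% of all genes tested. These were 11 of 17 sterol genes, 4 of 8 fatty acid genes and 3 of 5 genes of SREBP control. The median difference of replicate 3 from the mean of replicates 1 and 2 was 0.37 on the log2 scale over the members and -0.01 over all genes tested. SREBF2 stood at 193 to 217 CPM in the 4 libraries of replicate 3 and at 64.9 to 126 CPM in the other 8, and replicate number took 88.6% of its variance. For INSIG2 the split was the reverse, with 96.2% of the variance between siRNA conditions and 0.62% between replicate numbers. Over the members the median share of variance between replicate numbers was 57.5%, beside 46.4% over all genes tested. The labels name only the replicate number and no date or batch, and what set replicate 3 apart was not tested. The fits above compare libraries of the same number.

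**Figure D4:**
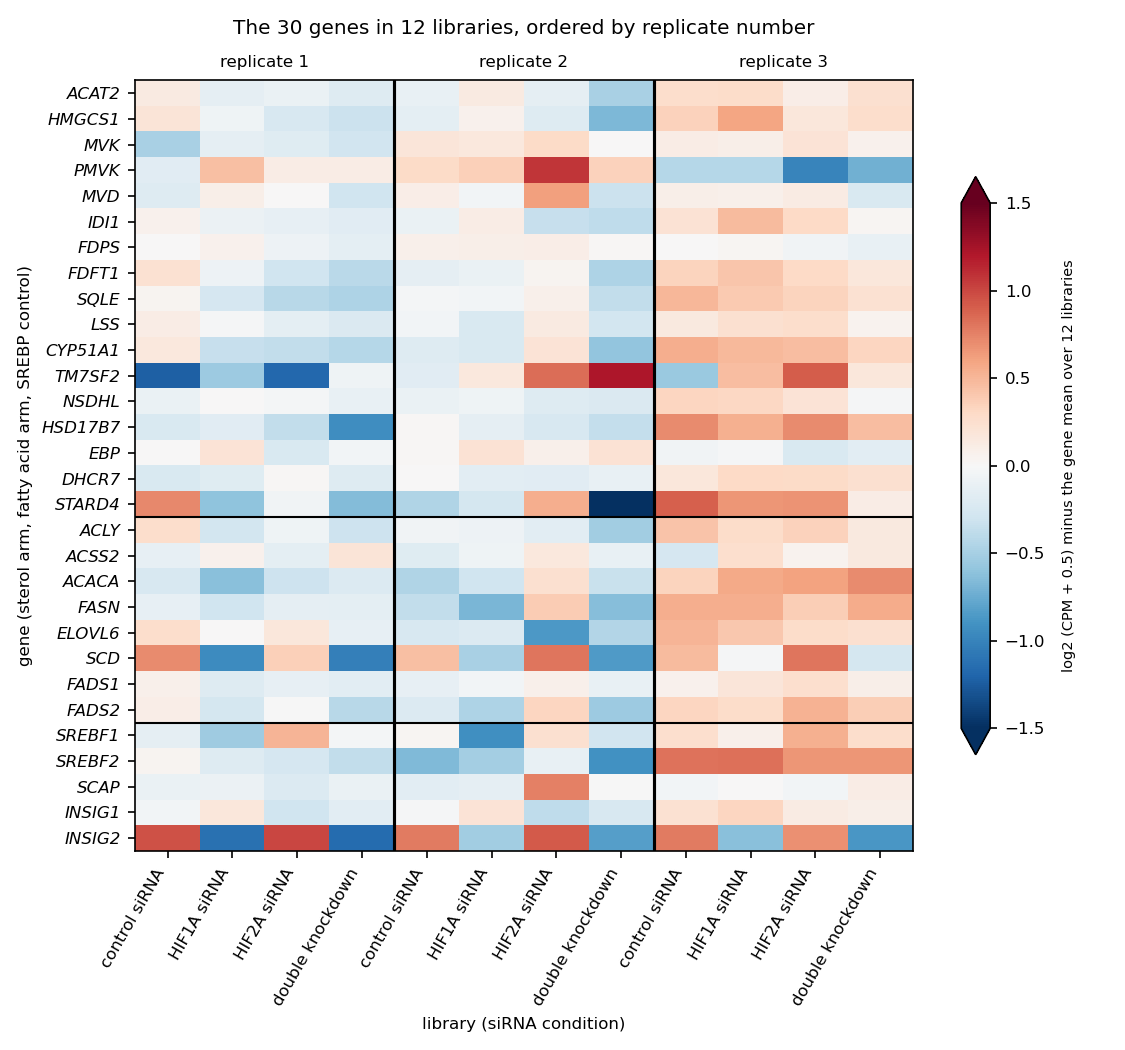
Departure of each of the 30 genes (rows, by role) from its own mean over 12 libraries, as log2 of CPM + 0.5 on a colour scale that ends at 1.5 in either direction, with libraries ordered by replicate number. Most rows are red in the 4 libraries of replicate 3, whereas INSIG2 alternates with HIF1A siRNA within every replicate number.

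Promoter sequences from RefSeq (GRCh38.p14), from 250 bases before to 50 bases after the start, were matched for 26 of the 30 genes. The counts themselves were made on hg19, and sequences were matched by symbol. The members without a match were ACAT2, FDFT1, SQLE and FASN. Both strands were searched for TCACCCCAC, a core of the sterol regulatory element, and for the looser TCACNCCAC, for CCAAT, the box of NF-Y, a known partner of SREBPs, for CACGTG, the E-box, and for ACGTG and GCGTG, the forms of the hypoxia response element core. ACGTG lies within CACGTG, and TCACCCCAC within TCACNCCAC, so these overlap. CCAAT was found in 16 of 26 promoters (61.5%), compared with 36.9% of promoters of genes tested and 35.7% of all 27305 promoters. It was in 11 of 14 sterol, 3 of 7 fatty acid and 2 of 5 control promoters. GCGTG was found in 19 of 26 (73.1%), compared with 50.6 and 36.3%. ACGTG was found in 6 of 26 (23.1%, compared with 26.7 and 21.6%) and CACGTG in 3 of 26 (11.5%, compared with 10.1 and 7.43%). SREBF2 alone held TCACCCCAC, found in 0.412% of promoters of genes tested and 0.425% of all, and no other member held TCACNCCAC, found in 1.14 and 1.15%. A match describes the letters in this window and is not a measured site.

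The promoters of the called members with a match that fell in the double knockdown are shown with that of INSIG1, the paralog of INSIG2, which was not called against control siRNA. Capitals mark, on either strand, the CCAAT box, either form of the hypoxia response element core, and the sterol element core with its open base.
INSIG2, chr2:118088221-118088520, plus strand: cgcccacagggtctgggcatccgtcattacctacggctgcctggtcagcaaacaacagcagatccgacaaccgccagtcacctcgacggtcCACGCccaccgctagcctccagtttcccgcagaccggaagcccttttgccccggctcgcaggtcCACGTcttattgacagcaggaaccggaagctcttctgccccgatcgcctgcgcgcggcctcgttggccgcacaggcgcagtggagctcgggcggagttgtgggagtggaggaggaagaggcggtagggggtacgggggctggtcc
INSIG1, chr7:155297628-155297927, plus strand: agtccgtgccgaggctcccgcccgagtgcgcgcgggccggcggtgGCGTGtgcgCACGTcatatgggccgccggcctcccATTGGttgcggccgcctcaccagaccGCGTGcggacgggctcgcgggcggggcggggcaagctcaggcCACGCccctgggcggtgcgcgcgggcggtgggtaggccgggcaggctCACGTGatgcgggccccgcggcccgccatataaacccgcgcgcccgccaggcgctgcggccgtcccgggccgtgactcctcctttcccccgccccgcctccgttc
SCD, chr10:100346983-100347282, plus strand: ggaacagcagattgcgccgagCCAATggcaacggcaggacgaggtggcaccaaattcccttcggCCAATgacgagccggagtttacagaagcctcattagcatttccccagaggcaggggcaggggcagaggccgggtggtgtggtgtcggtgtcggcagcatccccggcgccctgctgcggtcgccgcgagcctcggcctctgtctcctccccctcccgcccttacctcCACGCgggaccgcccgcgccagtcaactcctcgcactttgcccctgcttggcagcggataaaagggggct
ACLY, chr17:41918973-41919272, minus strand: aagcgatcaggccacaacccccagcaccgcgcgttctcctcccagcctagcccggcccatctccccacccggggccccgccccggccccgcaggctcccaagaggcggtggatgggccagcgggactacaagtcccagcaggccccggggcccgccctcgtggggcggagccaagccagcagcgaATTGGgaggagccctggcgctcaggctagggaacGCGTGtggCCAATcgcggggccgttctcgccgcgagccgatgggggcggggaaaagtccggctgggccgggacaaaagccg
STARD4, chr5:111512486-111512785, minus strand: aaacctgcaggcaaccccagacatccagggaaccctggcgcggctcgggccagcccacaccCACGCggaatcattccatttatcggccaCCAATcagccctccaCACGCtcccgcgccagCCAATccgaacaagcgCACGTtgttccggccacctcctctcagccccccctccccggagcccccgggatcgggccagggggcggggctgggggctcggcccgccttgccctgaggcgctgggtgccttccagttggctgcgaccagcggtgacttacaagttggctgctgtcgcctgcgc

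The INSIG2 window held 1 ACGTG, at positions -95 to -91 from the start, and 1 GCGTG, at -159 to -155, both on the strand opposite to the gene, and no CCAAT. The INSIG1 window held 1 CACGTG at -55 to -50, a further ACGTG on the opposite strand at -196 to -192, 3 GCGTG and 1 CCAAT. The SCD window held CCAAT at -229 to -225 and at -186 to -182 and 1 GCGTG at -20 to -16, and no ACGTG. Both ACLY and STARD4 held CCAAT and GCGTG, and STARD4 also held ACGTG at -114 to -110. GCGTG was thus in the windows of all 4 called members shown, as it was in those of most members.

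Companion lists placed the 30 genes beside the rest of lipid handling. Of 47 companion genes, 43 passed the filter. HIF1A siRNA gave 1 call, beside 1.39% of all genes tested. This was CYP27A1, the sterol hydroxylase of mitochondria, which rose from 18.4, 18.4 and 13.1 CPM to 40.8, 32.5 and 21.5 CPM (log2 fold change 0.90, SE 0.15, adjusted p = 0.0042 by edgeR). HIF2A siRNA gave 0 calls by edgeR, with 2 genes lower and 2 higher at an unadjusted p below 0.05, beside 6.68% of all genes tested. The double knockdown gave 3 calls among the 43, a share below the 10.3% of all genes tested. MSMO1, a methyl oxidase of sterol synthesis and 1 of 6 further enzymes of that pathway, fell from 90.3, 84.0 and 138 CPM to 60.7, 64.6 and 107 CPM (log2 fold change -0.44, SE 0.10, adjusted p = 0.010). NR1H3, which encodes the sterol-sensing receptor LXRα, rose from 2.08, 2.91 and 2.29 CPM to 4.50, 5.94 and 3.94 CPM (0.97, SE 0.26, adjusted p = 0.027). It had only 34 to 58 counts in the control libraries and 79 to 89 in the double knockdown. Its mean was also above control with HIF1A siRNA (3.8 CPM) and HIF2A siRNA (4.65 CPM), where it was not called. SOAT2, a cholesterol acyltransferase, fell from 31, 21 and 11 counts to 0, 0 and 1 count (adjusted p = 0.0037 by edgeR). Its mean was 0.448 CPM with HIF1A siRNA and 0.793 CPM with HIF2A siRNA, beside 1.21 CPM in control cells, and neither was called. The 7 genes of SREBP processing and the 16 further fatty acid genes that passed the filter gave 0 calls by edgeR against control siRNA. At an unadjusted p below 0.05 in the double knockdown, 2 of the former were lower, and 3 of the latter lower and 1 higher. Over all genes tested, 13.8% were lower and 11.5% higher. Of the 6 further sterol synthesis enzymes, 3 were lower and 0 higher, MSMO1 included. Of 8 genes of sterol efflux, esterification and oxysterols that passed the filter, 1 was lower and 5 higher, SOAT2 and NR1H3 included. Neither direction held any of the 6 tested genes of sterol uptake and traffic.

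Some members share exon bases with a counted gene on the opposite strand, and the strand setting of the counting was not given in the sources used here. These were ACAT2 with TCP1 (17.2% of exon bases in GENCODE version 44) and SOD2, MVK with MMAB, CYP51A1 with AKAP9, FADS1 with FADS2, and SREBF1 with RAI1 (6.75%). The remaining overlaps were each below 5.04%, the share of SOD2. INSIG2, SCD, ACLY, SQLE and STARD4 had no such overlap with a counted gene.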

How the data were processed

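Poly(A) RNA of the 12 libraries was sequenced from a directional kit. Per the labels, the authors used Trim Galore 0.3.3, HISAT2 2.05, Picard 2.0.1 and HTSeq 0.5.4p3 on hg19, and deposited the resulting raw counts, 1 value for each gene symbol. The strand setting of the counting is not given in the sources used here.

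All 12 libraries were fitted in edgeR 4.0.16 (R 4.3.3) with TMM normalization (factors 0.980 to 1.02), the filterByExpr filter (minimum count 10, minimum total 15), the replicate number as a block, quasi-likelihood tests and Benjamini-Hochberg adjustment over 13000 genes. CPM used TMM-scaled totals, and ratios within pairs added 0.5 CPM. SEs were derived from the F statistic. Medians of the arms were described without a test. The fit was tested on simulated data.

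The methods pair conditions by biological replicate. Same-numbered libraries deviated together from their condition means (correlations across genes 0.0991 to 0.813, 18 pairs), while differently numbered ones ranged from -0.724 to 0.527. Replicates differed by more than sampling noise, so none was merged. They are described as biological, and p-values measure only the spread between them. Precision is limited by 3 replicates and, for genes such as STARD4, TM7SF2, SOAT2 and NR1H3, by few counts.

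The members and companion lists, with the rule that names all members, HIF1A, EPAS1 and companion genes called against control siRNA, were chosen with earlier results of these data known. MVD, PMVK, ELOVL6 and SCAP were singled out in 1 library, and the called epithelial markers named, after their values were seen. The alternatives were other size factors, DESeq2 1.42.0, other filters, no block, fewer groups in the fit, and each replicate or library left out.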

Additional observations from a re-analysis of the deposited data

Results flagged for a closer look

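For 3 of the 30 genes, MVD, MVK and FDPS, all 3 pairs lay on one side of 0 for 1 siRNA given alone. They lay on the other side when the other siRNA was present. The share of all genes tested with this pattern was not counted, so the number is not read as a result about these genes. None of them passed the interaction test (edgeR adjusted p = 1 for each). MVD stood at a log2 fold change of 0.26 with HIF2A siRNA alone and at -0.33 when it was added to HIF1A siRNA, an interaction of -0.59 (SE 0.20, unadjusted p = 0.0094). MVK stood at 0.16 and -0.11, an interaction of -0.27 (SE 0.16, unadjusted p = 0.12). FDPS stood at 0.03 with HIF1A siRNA alone and at -0.07 when it was added to HIF2A siRNA, an interaction of -0.10 (SE 0.13, unadjusted p = 0.46). For MVD, replicate 2 of HIF2A siRNA, at 87.8 CPM, was the highest of the 12 libraries. Groups of 3 libraries were too small to look for outlying samples.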

How the results depend on the processing

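The 21 alternatives reversed no call. INSIG2 was called in all of them in each of its 4 comparisons, and SCD in the double knockdown in all of them. Without the replicate block, 1 member was called for HIF1A siRNA (in place of 2), 2 for the double knockdown (in place of 5) and 1 for HIF1A siRNA against HIF2A siRNA (in place of 4), and SCD with HIF1A siRNA had an adjusted p of 0.26 by edgeR. Leaving out the block moved no other count of members called by over 1.5 times. With the compared groups and control siRNA alone in the fit, 9 members were called in the double knockdown. DESeq2 called 1 member for the double knockdown against HIF1A siRNA (in place of 0) and 5 against HIF2A siRNA (in place of 3), and no filter also gave 5 there. Here and below, member counts in the alternatives stand without the share of all genes called in the same fit. Changes in them cannot be read as particular to these genes.

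With replicates or libraries left out in turn, the members called ranged from 1 to 2 for HIF1A siRNA, from 2 to 8 for the double knockdown, from 0 to 2 for the double knockdown against HIF1A siRNA, from 2 to 5 against HIF2A siRNA and from 2 to 4 for HIF1A siRNA against HIF2A siRNA, and stayed at 0 for HIF2A siRNA and for the interaction. The lowest count came without replicate 1 or HIF1A siRNA replicate 1 for HIF1A siRNA, and without replicate 1 for HIF1A siRNA against HIF2A siRNA. The sterol median ranged from -0.02 to 0.04 with HIF1A siRNA, from -0.10 to 0.02 with HIF2A siRNA and from -0.27 to -0.18 in the double knockdown. The fatty acid median ranged from -0.19 to -0.05 with HIF1A siRNA, from -0.04 (without replicate 2) to 0.35 (without replicate 1) with HIF2A siRNA and from -0.23 to -0.10 in the double knockdown. The sterol medians of the single knockdowns and the fatty acid median with HIF2A siRNA thus changed sign. Of 196 member and comparison pairs that were not called, 8 passed in at least 1 alternative. HMGCS1, FDFT1, CYP51A1 and TM7SF2 were those of the double knockdown against control siRNA. Apart from the smaller fits, the causes of these changes were not tested.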
